A study of Mus musculus with 8 samples.

Results

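The transcripts of MHC class I and of its peptide-loading machinery were examined in platelet RNA from 4 TNFdARE mice and from 4 control littermates. Of the 43548 genes in the expression table, 7 were taken by name: the light chain B2m, the heavy chains H2-D1, H2-K1 and H2-T23, the peptide transporter subunits Tap1 and Tap2, and the loading factor Tapbp. The rule names genes and uses no expression value, although it was written with earlier results of these data known. TNFdARE mice carry a Tnf allele without AU-rich elements, which makes the Tnf transcript long-lived, so that these mice overproduce TNF-α in every cell that transcribes the gene and develop arthritis and bowel inflammation. The line was crossed back to C57BL/6J, and B6 stands in the library names of all 4 controls. The controls were healthy littermates, the number of altered copies per TNFdARE mouse is not given in the sources used here, and all 8 mice were at baseline, 8 to 12 weeks old and labelled with 1 common batch. Each group held 2 females (control mice 1 and 4, TNFdARE mice 2 and 4) and 2 males (control mice 2 and 3, TNFdARE mice 1 and 3). RNA came from washed platelets, which have no nucleus and inherit most of their RNA from MKs. In such a bulk sample, fewer cells of a type and less RNA per cell cannot be told apart. The descriptions of the samples also mention 3 mice per group, older males and the taking of humeri, which differs from the 4 mice of both sexes and the platelet source listed. The comparison asks whether chronic TNF-α excess goes with a different class I message in platelets.

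MHC class I molecules display short peptides from inside the cell to CD8+ T cells. Each molecule joins a polymorphic heavy chain (H2-D and H2-K in the mouse) to the invariant light chain β2-microglobulin, encoded by B2m. Peptides made by the proteasome are pumped into the endoplasmic reticulum by the TAP1/TAP2 transporter, and tapasin, encoded by Tapbp, holds empty class I molecules beside that transporter until a peptide fits. H2-T23 encodes Qa-1, a nonclassical heavy chain read by inhibitory receptors of NK cells. In most nucleated cells the pathway is inducible by interferon and by NF-κB, a factor downstream of TNF receptors. Platelets carry class I on their surface and are known for carrying it in large amounts.

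The promoters of the light chain and of both classical heavy chains are shown because each carries letters known as a binding motif of NF-κB, which TNF-α switches on. Of them, only that of B2m also matches the 1 strict pattern searched here for interferon responses. Looser forms of that motif were not searched, so this is no difference in interferon elements between the 3 genes. Sequences are from RefSeq (GRCm38.p6) and run 5′ to 3′ over the 250 bases before the RefSeq start. These starts can differ from the GENCODE M21 gene bounds given with the values, and the window of H2-D1 lies inside its GENCODE bounds. Capitals mark matches to 3 motifs, each searched on both strands: GAAA, 2 bases of any kind and GAAA (the core of an interferon-stimulated response element), GGG, 2 bases of any kind, TT, 1 base of any kind and CC (NF-κB), and CCAAT.
B2m, chr2:122147437-122147686, plus strand: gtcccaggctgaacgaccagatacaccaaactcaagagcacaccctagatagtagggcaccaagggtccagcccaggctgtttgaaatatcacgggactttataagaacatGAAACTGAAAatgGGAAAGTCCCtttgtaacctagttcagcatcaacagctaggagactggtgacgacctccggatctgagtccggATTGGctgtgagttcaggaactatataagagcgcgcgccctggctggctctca
H2-D1, chr17:35262844-35263093, plus strand: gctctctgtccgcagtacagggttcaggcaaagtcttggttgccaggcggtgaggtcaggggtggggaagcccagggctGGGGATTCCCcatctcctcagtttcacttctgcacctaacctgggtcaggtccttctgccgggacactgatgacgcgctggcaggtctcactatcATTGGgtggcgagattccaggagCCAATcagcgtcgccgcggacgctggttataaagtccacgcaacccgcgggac
H2-K1, chr17:34000348-34000597, minus strand, the first of 2 starts: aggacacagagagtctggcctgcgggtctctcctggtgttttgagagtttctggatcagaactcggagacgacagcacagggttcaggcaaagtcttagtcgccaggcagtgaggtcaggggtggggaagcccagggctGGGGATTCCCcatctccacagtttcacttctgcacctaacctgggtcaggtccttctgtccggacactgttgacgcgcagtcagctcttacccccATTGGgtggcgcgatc

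Positions are counted back from the start. The B2m promoter held GAAACTGAAA at -139 and GGAAAGTCCC at -126, the latter being the NF-κB motif read on the opposite strand. H2-D1 and H2-K1 shared the NF-κB match GGGGATTCCC, at -171 and -111, and their promoters were identical at 87.4% of 190 aligned positions. The H2-T23 promoter held TTTCTCTTTC, the response element core on the opposite strand. The promoters of Tapbp and Tap1 held CCAAT matches and neither of the other motifs, and the promoter of Tap2 was not used here. Among 27025 mouse promoters of this length, 3.04% held the response element core, 4.00% the NF-κB motif and 34.5% CCAAT. A match is a description of letters, and binding was not measured.

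Values were read as FPKM, fragments corrected for the length of a transcript and for how many fragments a library mapped, a unit that was inferred. Read numbers are not given for any library. The libraries differed widely in completeness, with 1479 to 2742 genes above 0 in control mice and 818, 3187, 4917 and 1225 in TNFdARE mice 1 to 4. TNFdARE mice 1 and 4 had the fewest of all 8, and results that turn on them are also given without them. A listed 0 may be a failed estimate, because genes that nearly every cell uses also had zeros (Hprt in all 8 libraries, Gapdh in 5, Ppia in 6). Tnf was also listed at 0 in all 8, so the genotype labels could not be checked by the altered gene. All 14 platelet and MK markers were above 0 in some library, and their summed level was 1000 to 1311 FPKM in control mice and 1001 to 1108 in TNFdARE mice.

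B2m was among the most abundant transcripts of these platelets, and its level was not distinguishable between genotypes. B2m (ENSMUSG00000060802; chr2:122147686-122153083, plus strand, mm10) was present at 502, 437, 389 and 507 FPKM in controls 1 to 4 and at 684, 434, 341 and 179 FPKM in TNFdARE mice 1 to 4. The controls lay close together, whereas TNFdARE mice 1 and 4 were the highest and the lowest of all 8, so the groups overlapped. By its mean of 434 FPKM, B2m ranked 14 of 43548 genes, and within single libraries its rank ran from 9 to 27. The mean was 459 ± 56.5 FPKM (SD, n = 4) in control platelets and 410 ± 211 FPKM (SD, n = 4) in TNFdARE platelets. The log2 fold change, TNFdARE minus control on the log2(FPKM + 1) scale, was -0.31 (SE 0.40, 95% interval -1.18 to 0.55), with an adjusted p of 0.87 from limma with Benjamini-Hochberg adjustment over 1534 genes. The two-sided exact permutation test gave p = 0.57. The log2 fold change of B2m was -0.61 without TNFdARE mouse 1, rose to 0.03 when TNFdARE mouse 4 was left out, and was -0.24 without both.

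H2-D1 was the main heavy chain in every library. H2-D1 (ENSMUSG00000073411; chr17:35262730-35267499, plus strand) was present at 22.8, 29.5, 28.2 and 25.2 FPKM in controls 1 to 4 and at 8.90, 15.7, 21.8 and 33.6 FPKM in TNFdARE mice 1 to 4. TNFdARE mice 1, 2 and 3 lay below every control and TNFdARE mouse 4 above every control. The means were 26.4 ± 3.02 and 20.004 ± 10.5 FPKM (SD, n = 4 each). The log2 fold change of H2-D1 was -0.52 (SE 0.52, 95% interval -1.65 to 0.61, adjusted p = 0.86 from limma), and the two-sided exact permutation test gave p = 0.26. It remained negative under each of 22 other settings, from -0.81 to -0.21.

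The other classical heavy chain, H2-K1, was far lower than H2-D1. H2-K1 (ENSMUSG00000061232; chr17:33996017-34000347, minus strand) was listed at 2.22, 4.79, 0.111 and 0.999 FPKM in controls 1 to 4 and at 0, 1.66, 2.97 and 0 FPKM in TNFdARE mice 1 to 4. Both zeros came from the TNFdARE libraries with the fewest genes above 0, and the remaining values of the groups overlapped. For H2-K1 the log2 fold change was -0.49 (SE 0.78, 95% interval -2.19 to 1.20, adjusted p = 0.89 from limma), and it was 0.36 without those mice. With 1 mouse left out it ran from -0.89 (without control mouse 3) to -0.095 (without control mouse 2), and with a pseudocount of 0.1 it was -1.40.

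The nonclassical chain H2-T23 (ENSMUSG00000067212; chr17:36029773-36032855, minus strand) was listed at 0.342, 0.118, 0.974 and 1.78 FPKM in controls 1 to 4 and at 0, 4.59, 3.39 and 0.0665 FPKM in TNFdARE mice 1 to 4. TNFdARE mice 2 and 3 were above every control, and TNFdARE mice 1 and 4 were below every control. The log2 fold change was 0.42 (SE 0.79, 95% interval -1.28 to 2.11, adjusted p = 0.90 from limma). With 1 mouse left out it ran from 0.099 (without TNFdARE mouse 3) to 0.81 (without TNFdARE mouse 1), being 0.22 without control mouse 2. H2-T23 passed the filter through the high values of TNFdARE mice 2 and 3, and without TNFdARE mouse 2 it was below the filter and could not be tested. Its log2 fold change was 1.55 without TNFdARE mice 1 and 4, with an unadjusted p of 0.060 and an adjusted p of 0.998 from limma.

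**Figure D1:**
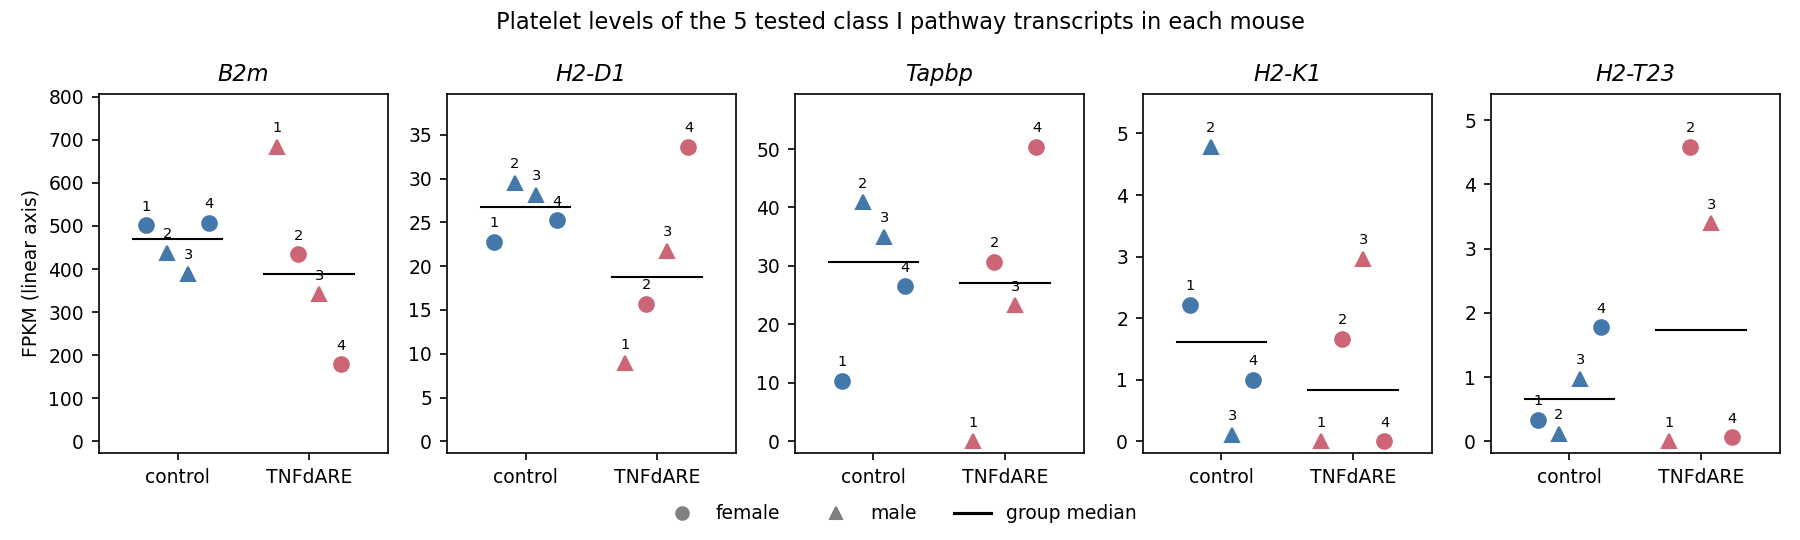
FPKM of each class I and antigen-processing transcript in each mouse, on linear axes, for the 5 that were tested (circles for females, triangles for males, numbers for the mice, lines for group medians). The 4 controls lie close together for B2m and H2-D1, and TNFdARE mice 1 and 4 mark the extremes of the TNFdARE group for both genes.

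Heavy chain genes are near copies of each other, so the longest runs they share are shown as stretches that hold no letter to tell the genes apart. The H2-D1 and H2-K1 coding sequences were identical at 91.9% of 1074 aligned positions. The longest common run of this pair has 91 bases in exon 4 of both genes, and that of H2-D1 and H2-T23 has 145 bases, also in exon 4. Both are printed in the sense direction from the mm10 genome.
H2-D1 (chr17:35265911-35266001, plus strand) and H2-K1 (chr17:33997343-33997433, minus strand): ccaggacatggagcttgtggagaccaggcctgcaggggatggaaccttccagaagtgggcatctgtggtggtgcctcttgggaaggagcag
H2-D1 (chr17:35265827-35265971, plus strand) and H2-T23 (chr17:36030910-36031054, minus strand): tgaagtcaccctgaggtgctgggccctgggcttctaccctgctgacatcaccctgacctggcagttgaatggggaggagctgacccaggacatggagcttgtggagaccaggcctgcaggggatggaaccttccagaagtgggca

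Reads were 150 bp, longer than either run, so a full read over a run also holds bases beside it. For H2-T23, 86.3% of the transcript was at least 95% identical to transcripts of 23 other genes, the longest match being H2-T-ps at 95.6% over 1068 bases, so the values of H2-T23 are uncertain. For H2-D1, 13.3% of the transcript had such a match, to H2-Q7, which was above 0 in TNFdARE mouse 3 alone, at 0.0833 FPKM. B2m, H2-K1, Tap1 and Tap2 had no match at that threshold. The pair H2-D1 and H2-K1, at 91.9% over their aligned coding bases, lies below it. Whether reads of these 2 genes were assigned to each other was not tested.

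The loading machinery was split, with Tapbp at a level near that of the main heavy chain and the transporter nearly undetected. Tapbp (ENSMUSG00000024308; chr17:33915899-33929292, plus strand) was listed at 10.4, 40.9, 35.0 and 26.5 FPKM in controls 1 to 4 and at 0, 30.7, 23.3 and 50.4 FPKM in TNFdARE mice 1 to 4. TNFdARE mouse 1 was the lowest and TNFdARE mouse 4 the highest of all 8. For Tapbp the log2 fold change was -0.89 (SE 1.03, 95% interval -3.12 to 1.33, adjusted p = 0.87 from limma), and the two-sided exact permutation test gave p = 0.71. It rested on the listed 0, since it was 0.38 without TNFdARE mouse 1 and 0.08 without TNFdARE mice 1 and 4. Tapbp overlaps Zbtb22 on the same strand and Gm19412 on the opposite strand, and whether the counting used strand is not given in the sources used here.

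Tap1 (ENSMUSG00000037321; chr17:34187553-34197225, plus strand) was listed at 0 in all 8 libraries. Tap2 (ENSMUSG00000024339; chr17:34203527-34216321, plus strand) was listed at 0 in 7 libraries and at 0.356 FPKM in TNFdARE mouse 3, the library with the most genes above 0. Neither was compared between genotypes. Given the zeros of Hprt, these values do not show that the transporter message was absent.

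Ordered by mean FPKM, the transcripts formed 3 tiers: B2m, then Tapbp and H2-D1 with means of 27.1 and 23.2, then H2-K1 and H2-T23 with means of 1.59 and 1.41. The neighbours in this order, which was read from the same data, were compared within mice as differences of log2(FPKM + 1). B2m was above Tapbp in 8 of 8 mice, by 4.42 ± 2.26 (SD, n = 8), and H2-D1 was above H2-K1 in 8 of 8 mice, by 3.41 ± 1.03 (SD, n = 8). The mean and SD for B2m and Tapbp are raised by TNFdARE mouse 1, in which Tapbp was listed at 0 and B2m was highest. Tapbp was above H2-D1 in 6 of 8 mice, with a mean difference, Tapbp minus H2-D1, of -0.24 ± 1.37 (SD, n = 8). The negative sign rests on the listed 0 of TNFdARE mouse 1, without which it was 0.19 ± 0.63 (SD, n = 7). H2-K1 was above H2-T23 in 2 of 8 mice and below it in 5, with a mean difference of 0.13 ± 1.15 (SD, n = 8). The last 2 differences were smaller than their spread between mice. Because the order was read from these same values, no p is given for it.

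Across the pathway, none of the 5 transcripts that could be tested differed between genotypes beyond the spread between mice. The filter, a mean of at least 1 FPKM over the 8 mice, kept B2m, H2-D1, H2-K1, H2-T23 and Tapbp. By limma, 0 of these 5 had an unadjusted p under 0.05, against 4.50% of the 1534 genes tested (69 genes, 27 higher and 42 lower in TNFdARE platelets). After Benjamini-Hochberg adjustment, 0 genes of the whole table passed, and the smallest adjusted p was 0.86. The groups overlapped for all 5 transcripts, and 3.32% of all tested genes had groups without overlap. With 5 transcripts, neither count of 0 can be told from these background shares. Of the 5, 4 had a negative and 1 a positive log2 fold change, with a median of -0.49, beside a median of -0.30 over all tested genes, and after quantile normalization the medians were -0.36 and -0.06. Without TNFdARE mice 1 and 4 the median of the 5 was 0.08, with 3 positive and 2 negative values, and with sample weights it was -0.21. The intervals remained wide, and for B2m, the most precisely measured, the lower bound was -1.18 and the upper 0.55.

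**Figure D2:**
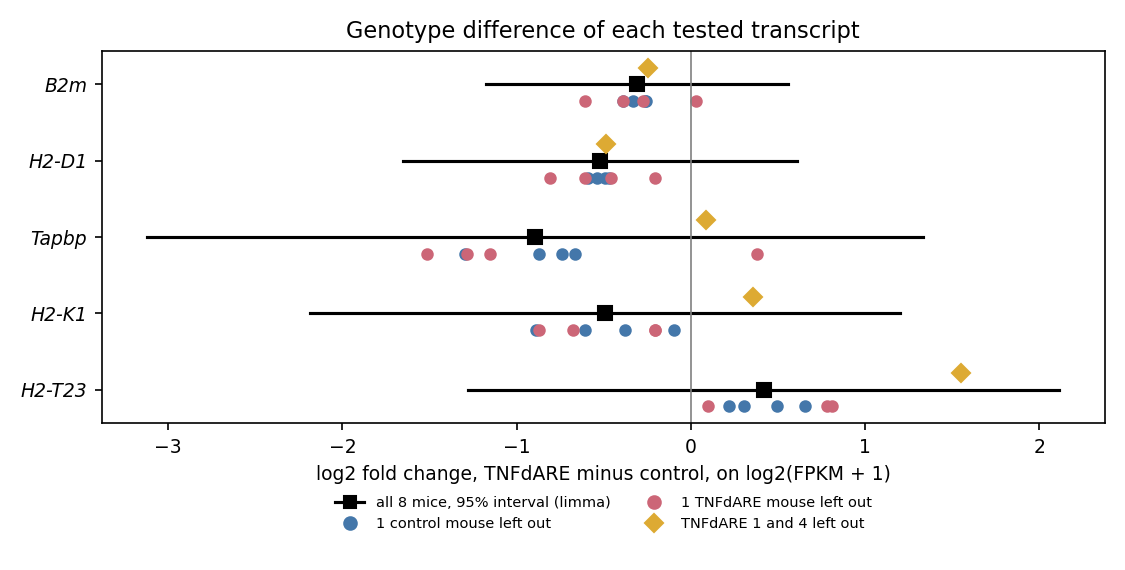
Log2 fold change (TNFdARE minus control, log2(FPKM + 1) scale) of the 5 tested transcripts with its 95% interval from limma, with circles for the value with 1 mouse left out (blue control, red TNFdARE) and a diamond for the value without TNFdARE mice 1 and 4. Every interval crosses 0, and the values rise to 0.03 for B2m without TNFdARE mouse 4 and to 0.38 for Tapbp without TNFdARE mouse 1.

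B2m and H2-D1 were spread more widely among TNFdARE mice than among controls. The highest B2m value was 1.30 times the lowest in control mice and 3.82 times the lowest in TNFdARE mice, and for H2-D1 these ratios were 1.30 and 3.78. TNFdARE mice 1 and 4 set both TNFdARE ratios, which were 1.27 and 1.39 between TNFdARE mice 2 and 3. The SD of log2(FPKM + 1) was also larger in TNFdARE mice for Tapbp (2.58 against 0.84) and H2-T23 (1.31 against 0.59), and for H2-K1 it was 1.01 in both groups. A wider spread in the TNFdARE group was common in these libraries: among the 583 genes with a mean of at least 5 FPKM, the SD on the log2 scale was larger in TNFdARE mice for 385 (66.0%). The difference in spread was not tested.

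B2m and H2-D1 ran in opposite order over the TNFdARE mice, a pattern singled out after its values were seen. From TNFdARE mouse 1 to mouse 4, B2m was 684, 434, 341 and 179 FPKM while H2-D1 was 8.90, 15.7, 21.8 and 33.6 FPKM. The ratio of B2m to H2-D1 was therefore 76.9, 27.6, 15.7 and 5.33 in TNFdARE mice 1 to 4, against 22.02, 14.8, 13.8 and 20.1 in controls 1 to 4. TNFdARE mice 1 and 2 were above every control, TNFdARE mouse 4 was below every control, and TNFdARE mouse 3 lay within the control range. Over all 8 mice, the log2 values of B2m and H2-D1 had r = -0.68 and rho = -0.48 (n = 8), and r was 0.04 without TNFdARE mice 1 and 4 (n = 6). The share of tested genes listed at 0 was 58.3%, 13.8%, 6.98% and 43.0% in TNFdARE mice 1 to 4, so the extremes of the ratio came from the sparsest libraries. The part of library completeness in this pattern was not tested.

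**Figure D3:**
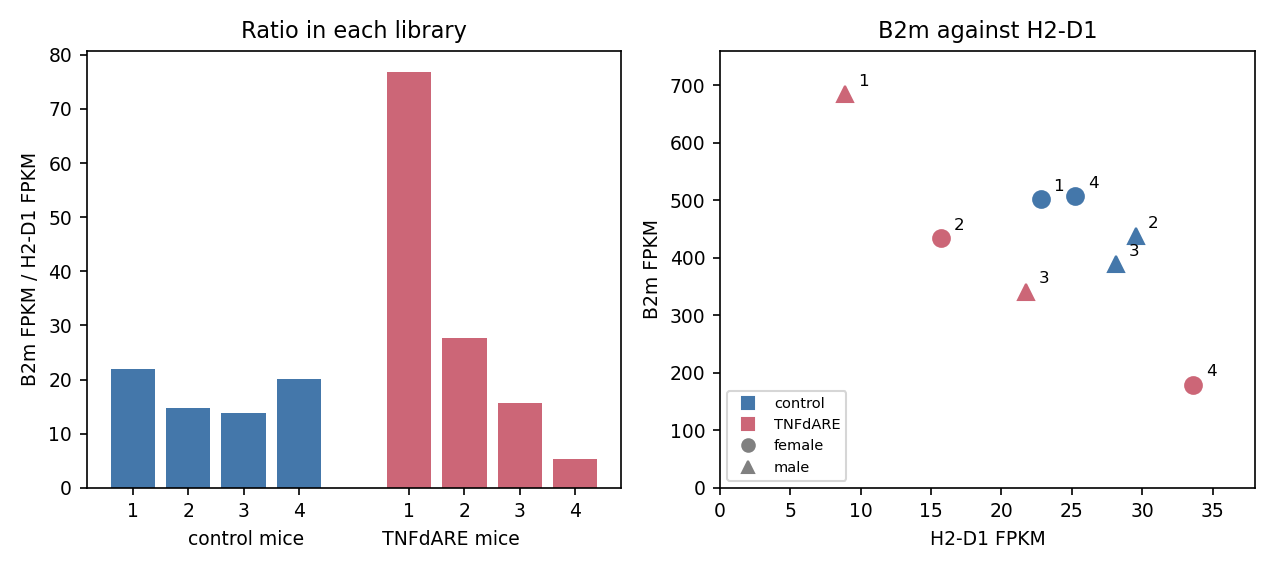
Ratio of B2m to H2-D1 FPKM in each mouse as bars from 0, and B2m FPKM against H2-D1 FPKM with 1 point per mouse (colours for genotype, circles for females, triangles for males, numbers for the mice). The control ratios lie between 13.8 and 22.02, and those of TNFdARE mice 1 to 4 run from 76.9 to 5.33.

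H2-D1 made up most of the heavy chain message. Its share of the summed FPKM of H2-D1, H2-K1 and H2-T23 was 89.9%, 85.8%, 96.3% and 90.1% in controls 1 to 4, against 100%, 71.5%, 77.4% and 99.8% in TNFdARE mice 1 to 4. The lowest shares were those of TNFdARE mice 2 and 3, in which H2-T23 was highest, and the highest were those of the sparse libraries. The summed heavy chains were 25.3, 34.4, 29.3 and 28.0 FPKM in control mice and 8.90, 21.96, 28.1 and 33.7 FPKM in TNFdARE mice.

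The genotype difference of Tapbp differed between the sexes at an unadjusted threshold. Both TNFdARE females (30.7 and 50.4 FPKM) were above both control females (10.4 and 26.5), and both TNFdARE males (0 and 23.3) were below both control males (40.9 and 35.0). The mean log2 difference was 1.19 in females and -2.98 in males. The interaction, male minus female, was -4.17 (SE 1.71, 95% interval -7.82 to -0.52), with an unadjusted p of 0.028 and an adjusted p of 0.92 from limma. At that unadjusted threshold, 3.52% of the tested genes had an interaction, and 4.63% had opposite directions in the sexes without overlap in either. Leaving out any 1 mouse other than TNFdARE mouse 3 took the unadjusted p above 0.05, although the interaction stayed between -4.81 and -3.53 for each of these mice but TNFdARE mouse 1. Without TNFdARE mouse 3 it was -6.47 (unadjusted p = 0.0011, adjusted p = 0.13, limma). Without TNFdARE mouse 1, a male listed at 0, the interaction was -1.87 (unadjusted p = 0.11, adjusted p = 0.999, limma), and without TNFdARE mice 1 and 4 it was -1.52 (unadjusted p = 0.21, adjusted p = 0.998, limma).

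The other 4 transcripts had interactions with an unadjusted p above 0.05. For B2m it was 1.08 (SE 0.85, adjusted p = 0.92, limma), with both TNFdARE females below both control females. For H2-D1 it was -0.94 (SE 1.19, adjusted p = 0.93, limma), with both TNFdARE males below both control males. For H2-K1 and H2-T23 the interactions were 0.29 and 0.16. With 2 mice per sex and genotype, these comparisons rest on single animals. Without TNFdARE mice 1 and 4, the interactions of B2m and H2-D1 were -0.057 and 0.19.

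The rest of the class I pathway was thinly covered. Of 59 related genes on 4 lists (other heavy chains, peptide supply and trimming, loading chaperones, and regulators), the table held 58, of which 31 had a value above 0 somewhere and 5 were tested. By limma, 0 of these 5 had an unadjusted p under 0.05, a count too small to set against the 4.50% of all tested genes. The number of related genes above 0 was 0, 9, 11 and 15 in controls 1 to 4, against 1, 14, 20 and 4 in TNFdARE mice 1 to 4. It was lowest in control mouse 1 and TNFdARE mice 1 and 4, the libraries with the fewest genes above 0 in the whole table. The part of library completeness in these values was not tested.

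Among other heavy chains, H2-T24 was above 0 in 7 libraries (0 to 2.95 FPKM in control mice, 0.0436 to 4.01 in TNFdARE mice), with a log2 fold change of 0.14 (SE 0.77). H2-T22, a ligand of a γδ T cell subset, was above 0 in 5 libraries and had a log2 fold change of -0.33 (SE 0.74). It passed the filter through control mice 2 and 3, at 2.53 and 3.06 FPKM, so this sign cannot be read as a change. Of the genes that make and trim peptides, the proteasome activator Psme3 and the cytosolic peptidase Tpp2 were tested, with log2 fold changes of -0.96 (SE 0.84) and -1.003 (SE 0.93). Both were highest in control mouse 3, at 10.2 and 17.1 FPKM, and passed the filter only through control mice. Their negative signs therefore cannot be read as a change. The immunoproteasome subunit Psmb8 was above 0 in 1 mouse of each group, at 2.70 FPKM in control mouse 4 and 1.36 FPKM in TNFdARE mouse 2, and Psmb9 was listed at 0 in all 8.

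Of the loading chaperones, Bcap31, an endoplasmic reticulum protein that helps export class I, was above 0 in 6 libraries, with a log2 fold change of 0.36 (SE 1.01). Calreticulin (Calr), a chaperone of the loading complex, was above 0 in 6 libraries with a mean of 0.622 FPKM, and Pdia3, its partner in that complex, was listed at 0 in all 8. No regulator of class I transcription reached the filter, and Nlrc5, the main transactivator of class I genes, was listed at 0 in all 8 libraries.

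**Figure D4:**
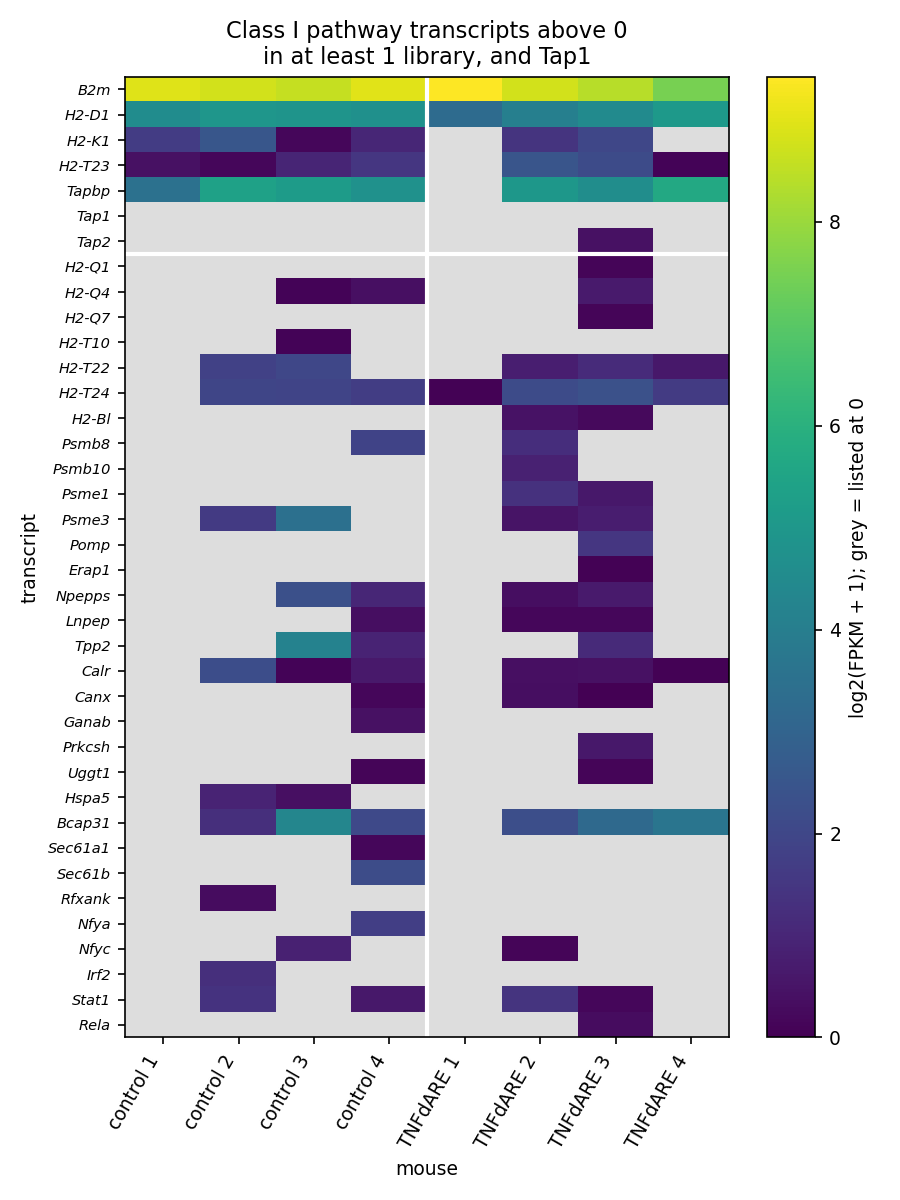
Log2(FPKM + 1) of the 7 named transcripts and of related class I pathway genes above 0 in at least 1 library, with mice in columns, brighter colours for higher values and grey for a listed 0. Control mouse 1 and TNFdARE mouse 1 have 0 and 1 related genes above 0, and TNFdARE mouse 3 has 20.

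Interferon-response genes, which are induced together with class I in many cells, were mostly below the filter. Of 26 genes on the list, 14 were above 0 in some library and 5 were tested, with a median log2 fold change of 0.11. By limma, 1 of the 5 was higher and 0 were lower at an unadjusted p under 0.05, against 1.76% and 2.74% of all tested genes. The gene past it was Sp140, a chromatin reader of leukocytes, at 0.229, 0.839, 0.888 and 11.3 FPKM in controls 1 to 4 and 51.6, 12.8, 8.31 and 8.41 FPKM in TNFdARE mice 1 to 4. For Sp140 the log2 fold change was 2.56 (SE 0.84, adjusted p = 0.86 from limma), and control mouse 4 overlapped the TNFdARE group. The antiviral membrane proteins Ifitm3 and Ifitm2 had log2 fold changes of 0.11 and -0.60, while Ifit2, which binds viral RNA, had 0.24 and the GTPase Igtp -1.11, none past the threshold. Rsad2, an antiviral enzyme below the filter and not tested, was singled out after its values were seen because its groups did not overlap. Groups did not overlap for 3.32% of the tested genes, a share that covers no gene below the filter. Rsad2 was listed at 2.36, 0.782, 0.904 and 0.720 FPKM in controls 1 to 4 and at 0.0237, 0.494, 0.442 and 0.250 FPKM in TNFdARE mice 1 to 4, lower in every TNFdARE mouse.

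MHC class II genes and markers of white blood cells, which also carry class I, were thinly covered. Of 12 class II genes, 7 were above 0 in at least 1 library, 5 were listed at 0 in all 8 and 2 were tested. By limma, 0 of these 2 had an unadjusted p under 0.05, a count too small to set against the 4.50% of all tested genes. They were Cd74, the class II invariant chain, with a log2 fold change of -0.11 (SE 0.96), and the protease Ctss, with 0.29 (SE 0.85). Ctss was above 0 only in control mouse 3 (2.60 FPKM) and TNFdARE mouse 4 (7.08 FPKM). It passed the filter through the latter, so its sign cannot be read as a change. Of 38 leukocyte markers, 16 were above 0 in at least 1 library, 22 were listed at 0 in all 8 and 4 were tested. The summed neutrophil markers were 0 in every control mouse and 0, 0, 0.581 and 10.3 FPKM in TNFdARE mice 1 to 4. The value of TNFdARE mouse 4 was S100a9 alone, and Ly6g was at 0 in all 8. The summed monocyte and macrophage markers were 30.8 to 53.4 FPKM in control mice and 12.0 to 36.1 FPKM in TNFdARE mice, most of it Lyz2, a lysozyme gene with a log2 fold change of -0.94 (SE 0.50). Summed B cell markers were 0 to 18.0 FPKM in control mice and 0.129 to 13.7 FPKM in TNFdARE mice, and T and NK cell markers were at most 1.02 FPKM. Summed erythroid markers were 752 to 2196 FPKM in control mice and 6912, 1105, 2927 and 14640 FPKM in TNFdARE mice 1 to 4, so that they were highest in TNFdARE mice 1 and 4, which also held the extremes of B2m and H2-D1. Of the erythroid markers, 5 of 5 tested were higher at an unadjusted p under 0.05 by limma, against 1.76% of all tested genes, and without TNFdARE mice 1 and 4 this was 0 of 6 against 2.51%. The part of these cells in the class I values was not tested.

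Tnf itself lies within the H2 complex on chromosome 17 (chr17:35199381-35202007, minus strand), beside the class I genes. The start of H2-D1 is 60.7 kb from that of Tnf, and those of H2-T23, Tap2, Tap1, H2-K1 and Tapbp are 831, 998, 1014, 1202 and 1286 kb away. B2m, on chromosome 2, is the only one of the 7 on another chromosome. Whether a chromosome segment of the founder strain remained around Tnf was not tested. For genes this near, such a segment and the altered Tnf allele cannot be told apart.

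Of 195 genes in the table that start within 1 Mb of Tnf, 16 were tested, 7 with a positive and 9 with a negative log2 fold change, and by limma 0 had an unadjusted p under 0.05, against 4.50% of all tested genes. Their median was -0.09, against -0.33 for the 65 tested genes of chromosome 17. The smallest unadjusted p was that of Flot1, at 0.18 by limma (adjusted p = 0.86), with a log2 fold change of -1.27 (SE 0.91). The nearest tested genes after H2-D1 were Csnk2b (0.16, SE 0.82), Ly6g6f (-0.79, SE 0.77), G6b (-0.11, SE 0.48) and Ly6g6c (0.46, SE 1.05), given as log2 fold changes. G6b, an inhibitory receptor of platelets and MKs, was the best covered of them, with a mean of 28.9 FPKM. Ly6g6f, at 5.70 FPKM in control mouse 1, also passed the filter through a control.

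**Figure D5:**
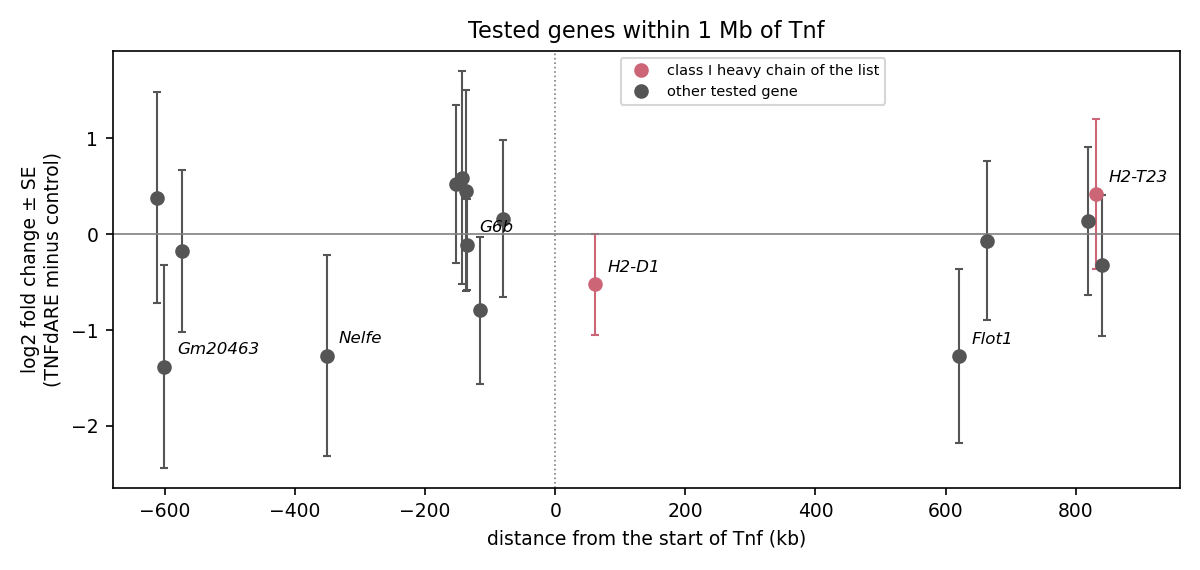
Log2 fold change (TNFdARE minus control, with SE) of tested genes against the distance of their start from the start of Tnf, in kb. Of 16 genes within 1 Mb, 7 lie above 0 and 9 below, and H2-D1, at 60.7 kb, lies at -0.52.

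The genes whose levels ran most like those of each transcript over the 8 mice were named as a description, among 583 genes with a mean of at least 5 FPKM and with no p. For B2m these were Map3k12 (r = 0.97), Gm26723 (0.96), Prkar2b (0.96), Fhl1 (0.95) and Peg10 (0.94), each between 0.93 and 0.97 without TNFdARE mouse 1. For H2-D1 they were Actg1 (0.97), Gm26602, Nrgn and Sh3bgrl3 (0.90 each) and Pfn1 (0.89), and without TNFdARE mouse 1 the last 4 were at 0.60 to 0.62. For Tapbp they were Ftl1, Treml1, Rnasek and Gm10401 (0.98 each) and Ccdc92 (0.97), falling to between 0.80 and 0.89 without that mouse. Tapbp and H2-D1 themselves had r = 0.87 and rho = 0.83 (n = 8), and r was 0.45 without TNFdARE mouse 1. For H2-K1 the nearest were Gm10925 (0.86), Itgb3 (0.85), Itgb1 (0.84), D030025P21Rik (0.83) and 4930500M09Rik (0.83). For H2-T23 they were Ly6g6c (0.92), Hist1h2bn (0.85), 4930439D14Rik (0.82), Ndrg1 (0.77) and Gatad1 (0.76). Of these 5, 4930439D14Rik was at 0 in 5 of 8 libraries, Hist1h2bn in 4 and Ly6g6c in 2. The points of each correlation share the library, its depth and, for low genes, its zeros.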

How the data were processed

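RNA of washed platelets was sequenced as 150 bp reads. The table deposited by the authors holds 1 number for each gene in each mouse, read here as FPKM because the submitters' processing notes name Cufflinks, with the mm10 genome, and the columns sum to different totals. Versions, annotation, strand use and the treatment of reads that fit several genes are not given in the sources used here. The unit was inferred. For the spatial data the methods name CPM and refer to the bulk libraries, but the columns here sum to 46047 to 99470, far below the total of a CPM column. The number of reads is unknown, and 0 value columns were left unmapped. The groups and sexes came from the labels. Each mouse gave 1 library.

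Genotypes were compared for genes whose FPKM averaged 1 or more, as log2(FPKM + 1), in limma 3.58.1 (R 4.3.3; moderated linear model with a trend, Benjamini-Hochberg adjustment over 1534 genes), which was tested on simulated data. This scale understates changes of low genes. Two-sided exact permutation tests, with a smallest p of 0.029, stand beside it. Members and lists were chosen with earlier results of these data known. Named were the 7 members, the tested genes of the related class I, class II and interferon lists, the 5 tested genes nearest Tnf, and the 5 most like each member. Calr, Lyz2, Hprt, Gapdh and Ppia were also named, while the erythroid markers were only counted and summed. Flot1, Nelfe, Psmb8, Psmb9, Pdia3, Nlrc5, Ly6g, S100a9, Rsad2 and the B2m to H2-D1 ratio were named after their values were seen. Alternatives were other pseudocounts (0.1 and 5), filters, scalings, moderation, sample weights, covariates, a replicate block and leaving out mice. Positions and similarity used GENCODE M21 and BLAST 2.17.0 (95% identity over at least 150 bases). RefSeq promoters matched 6 of 7 members. Figures were drawn with matplotlib 3.10.9.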

Additional observations from a re-analysis of the deposited data

Results flagged for a closer look

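Tap2 was above 0 in TNFdARE mouse 3 alone, at 0.356 FPKM, so the gap between this mouse and the others took up the whole range of its group (a share of 1.0). Any gene with 1 value above 0 among 4 mice gives this share, so it says no more than that Tap2 was listed once. About 1 in 20 groups has such a gap by chance for continuous values. That library had more genes above 0 (4917) than any other, and the part of this in the Tap2 value was not tested.

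The genotype difference of Tapbp differed between males and females by -4.17 on the log2 scale (unadjusted p = 0.028, adjusted p = 0.92, limma with an interaction term), with both TNFdARE females above and both TNFdARE males below the controls of their sex. It fails the correction over all genes.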

How the results depend on the processing

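The 69 of 1534 genes past an unadjusted p of 0.05 became 36 of 583 with a mean of at least 5 FPKM, 85 of 6566 without a filter and 111 of 1534 with sample weights, and 46 to 76 with 1 mouse left out. The split of 27 higher and 42 lower became 34 and 25 after quantile normalization, 74 and 37 with sample weights, and 40 and 11 without TNFdARE mice 1 and 4. The log2 fold change of H2-K1 was 0.39 with sample weights and 0.36 without TNFdARE mice 1 and 4. That of Tapbp was 0.084 without these mice and -1.51 to 0.38 with 1 mouse left out, and that of B2m was -0.61 to 0.032 with 1 mouse left out. In each of these cases the cause was not tested. The log2 fold change of H2-D1 kept its direction under every alternative run. That of H2-T23 was positive wherever it could be tested, but it passed the filter only through TNFdARE mice, so this says nothing of its stability. The smallest adjusted p of a member's log2 fold change under any alternative was 0.61 (limma). H2-K1 and H2-T23 were below the filter of 5 FPKM, and H2-T23 fell below the main filter without TNFdARE mouse 2.

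The interaction of Tapbp with sex was -4.17 without a filter (unadjusted p = 0.067, adjusted p = 0.66, limma), -4.17 without a trend (unadjusted p = 0.0502, adjusted p = 0.89, limma) and -3.81 after quantile normalization (unadjusted p = 0.057, adjusted p = 0.88, limma). Its unadjusted p stayed under 0.05 with pseudocounts of 0.1 (-5.87) and 5 (-2.86) and with a mean of at least 5 FPKM (-4.17). Leaving out mice was added for the interactions, the erythroid markers and the difference of Tapbp and H2-D1 after seeing the data. Without TNFdARE mice 1 and 4 the interactions were -1.52 for Tapbp, -0.057 for B2m and 0.19 for H2-D1. With 1 mouse left out they ran from -6.47 to -1.87 for Tapbp, 0.44 to 1.72 for B2m, -1.54 to -0.34 for H2-D1, -0.90 to 1.48 for H2-K1 and -1.04 to 1.23 for H2-T23, which was -0.039 after quantile normalization. The upper value of B2m, without TNFdARE mouse 2, had an unadjusted p of 0.0498 and an adjusted p of 0.58 (limma).

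The replicate numbers shared by the groups did not pair the mice (correlations of deviations -0.07 to 0.06, and 2 of 8 mice correlated best with their own number). Parts of some library names recur in both groups, and a pairing by these was not tested. With the replicate block, 64 genes passed the unadjusted threshold. Depth limits are unknown, since FPKM give no read numbers and a listed 0 allows no upper limit.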
